A study of Mus musculus with 16 samples.

Results

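The 10 genes described here encode the core of iron handling in liver and the 2 main metallothioneins. They were chosen by name and not by a threshold on measured values, though with earlier results of these data known. They are Hamp and Hamp2 (hepcidins), Slc40a1 (ferroportin), Trf (transferrin), Tfrc and Tfr2 (transferrin receptors), Fth1 and Ftl1 (ferritin subunits), and Mt1 and Mt2 (metallothioneins). All 10 were present among the 55421 genes of the count table and all 10 were among the 23018 genes tested. The RNA came from livers of male C57BL/6 mice that received a vector when 6 months old and had part of the liver resected 4 weeks later. The resected piece was the sample before regeneration, and what remained of the liver was taken 5 days after the resection as the sample after regeneration. HIRA, a chaperone that deposits the histone variant H3.3, was removed in 2 ways. In the Cre approach, HIRA fl/fl mice received AAV8 Tbg-Cre and wildtype mice given the same virus were the controls. In the CRISPR approach, wildtype mice received AAV8-Tbg-saCas9 with a guide RNA against HIRA, and wildtype mice given the same vector with a guide against Rosa26 were the controls. Every mouse therefore carried an AAV8 vector, and the Tbg promoter limits the deletion to hepatocytes, so the other cells of a HIRA knockout (KO) liver kept the gene. There were 4 groups of 4 libraries (control and HIRA KO, before and after regeneration), with 2 libraries of each deletion approach in each group. The columns of the table carry genotype, time and a running number from 1 to 4, which no label ties to an approach or to a mouse. Samples of 1 mouse taken before and after could therefore not be paired, and the 2 approaches cannot be told apart here. The samples before and after also differ in liver lobe, in how they were collected and in time, and these too cannot be told apart.

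Iron in plasma travels bound to transferrin, which hepatocytes make and secrete. Cells take it up through transferrin receptor 1, the product of Tfrc, while transferrin receptor 2 serves mainly as a sensor of iron-loaded transferrin on hepatocytes. Iron not in use is stored inside the shell formed by ferritin heavy and light chains, and it leaves cells through ferroportin, the known iron exporter. Hepatocytes secrete hepcidin, a peptide hormone that binds ferroportin and causes its loss from the cell surface. Hamp transcription is driven by BMP and SMAD signalling in response to iron, with BMP ligands from sinusoidal endothelial cells, and by IL6 and STAT3 in inflammation. Mt1 and Mt2 encode small cysteine-rich proteins that bind zinc and copper. They are induced by metals through the transcription factor MTF1, and also by glucocorticoids and in the acute phase response.

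Several of these messages carry iron-responsive elements, hairpins bound by iron regulatory proteins when iron is scarce. Binding in a 5′ untranslated region (UTR) blocks translation, and binding in the 3′ UTR protects the message from decay. The hairpins are shown because, among the members that hold them, their place separates control of message decay from control of translation. The UTRs of the members' transcripts (GRCm38, GENCODE M21) were searched on the transcript strand for an unpaired C, a stem of 5 base pairs with G-T pairs allowed, and the loop CAGTGN. Each match is printed 5′ to 3′ as 29 bases with the 6 bases of the loop in capitals.
Fth1, 5′ UTR, chr19:9982732-9982760, plus strand: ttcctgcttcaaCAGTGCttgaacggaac
Ftl1, 5′ UTR, chr7:45459779-45459807, minus strand: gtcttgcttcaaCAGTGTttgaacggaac
Slc40a1, 5′ UTR, chr1:45925465-45925493, minus strand: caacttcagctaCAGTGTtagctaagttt
Tfrc, 3′ UTR, chr16:32631219-32631247, plus strand: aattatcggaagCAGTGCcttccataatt
Tfrc, 3′ UTR, chr16:32631598-32631626, plus strand: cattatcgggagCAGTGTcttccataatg
Tfrc, 3′ UTR, chr16:32631663-32631691, plus strand: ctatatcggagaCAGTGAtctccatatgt
Tfrc, 3′ UTR, chr16:32631710-32631738, plus strand: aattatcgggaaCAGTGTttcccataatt
The 2 ferritin windows were identical at 26 of 29 bases (T1G, C4T and C18T, with the Fth1 base first and positions counted from the 5′ end of the window). Ferritin and ferroportin each held 1 match in the 5′ UTR, and Tfrc held 4 in the 3′ UTR. The other 6 members held none under this pattern. Over all genes, 31 of 20916 genes with a 5′ UTR (0.148%) and 129 of 21045 genes with a 3′ UTR (0.613%) held a match. RNA sequencing reads the level of a message and not its translation, so for Fth1, Ftl1 and Slc40a1 the values below leave the translated protein unmeasured.

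Promoter windows are shown for the metallothioneins, the members known mainly for control by metals at the level of transcription. Sequences were taken from RefSeq (GRCm38.p6), which had a promoter of 250 bases before to 50 bases after the start for 8 of the 10 members, all but Trf and Slc40a1. Both strands were searched for TGCACNC and TGCGCNC, the cores of metal response elements. Matches were counted for Tfrc, Tfr2, Fth1, Ftl1, Mt1 and Mt2, and not separately for Hamp and Hamp2. In each window of 30 bases the matches are in capitals.
Mt1, chr8:94179059-94179088, plus strand, bases -30 to -1 from the start: cccgctgTGCACACtggcgctccagggagc
Mt2, chr8:94172568-94172597, plus strand, bases -50 to -21, with the match on the other strand: GTGTGCAggctctgtcccacgagcaaaaag
The Mt1 promoter held 3 metal response cores and the Mt2 promoter held 4. Of 32851 promoters of the same length, 25.7% held at least 1 such core, 1.97% held at least as many as Mt1 and 0.517% at least as many as Mt2. Tfrc had a promoter with 2 cores, where 7.11% of all promoters held at least as many, and another with 0. The promoters of Tfr2, Fth1 and Ftl1 held 0. These are matches of letters and not measured binding sites.

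The libraries held 15103059 to 21738619 counts (median 18337571). Values below are CPM (counts scaled to a common library size) with TMM scaling, given as mean ± SD with n = 4 libraries a group, and tests are edgeR quasi-likelihood fits with p adjusted by Benjamini-Hochberg over all 23018 genes. HIRA KO columns 1 and 2 stood apart at both times: on the second principal component (26.5% of variance) they lay at -47.4 and -36.6 before and at -40.2 and -36.2 after, while the other 12 libraries lay between -1.14 and 31.2. The changes and differences of HIRA KO liver are given also without these 4 libraries where a call or a list's count differed. The label liver was checked with 6 hepatocyte markers, which summed to between 97974 and 155456 CPM in every library. Before regeneration Hira itself measured 5.77 ± 0.448 CPM in controls against 3.54 ± 0.571 in knockouts. After regeneration the values were 5.67 ± 0.554 against 3.51 ± 0.707, with no overlap between the genotypes at either time. Its adjusted p was 0.129 before and 0.0666 after in edgeR. The 4 libraries of a group came from separate mice per the study's design, and the p-values measure the spread between them, both deletion approaches included. In bulk liver, fewer cells of a type and less RNA per cell cannot be told apart.

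Levels of different genes were compared per length, in FPKM as deposited, with mean ± SD of 4 libraries. In control liver before regeneration Trf led with 8532 ± 687 FPKM, followed by Ftl1 at 2264 ± 362, Fth1 at 1696 ± 201 and Hamp at 888 ± 299.8. The order Trf, Ftl1, Fth1, Hamp held for the group means of all 4 groups, although the library ranges of Fth1 and Hamp overlapped in both HIRA KO groups. Below these came Tfr2 at 130.0 ± 4.97 FPKM, Hamp2 at 38.1 ± 30.005, Mt1 at 24.6 ± 20.1, Slc40a1 at 24.5 ± 3.53, Mt2 at 7.78 ± 6.89 and Tfrc at 4.92 ± 0.819. Ranges overlapped between Hamp2 and Mt1, between Mt1 and Slc40a1, and between Mt2 and Tfrc. Tfrc, the receptor for uptake, had the lowest mean in all 4 groups, far under Tfr2. In control liver after regeneration Mt1 at 175 ± 170.1 FPKM and Mt2 at 166 ± 155 stood above Tfr2 at 127 ± 17.8 by their means, with overlapping ranges. Transferrin is one of the main messages of hepatocytes, and its mean share of all counts was 1.62% for control and 2.64% for HIRA KO libraries before regeneration, and 2.95% and 3.46% for those after.

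**Figure D1:**
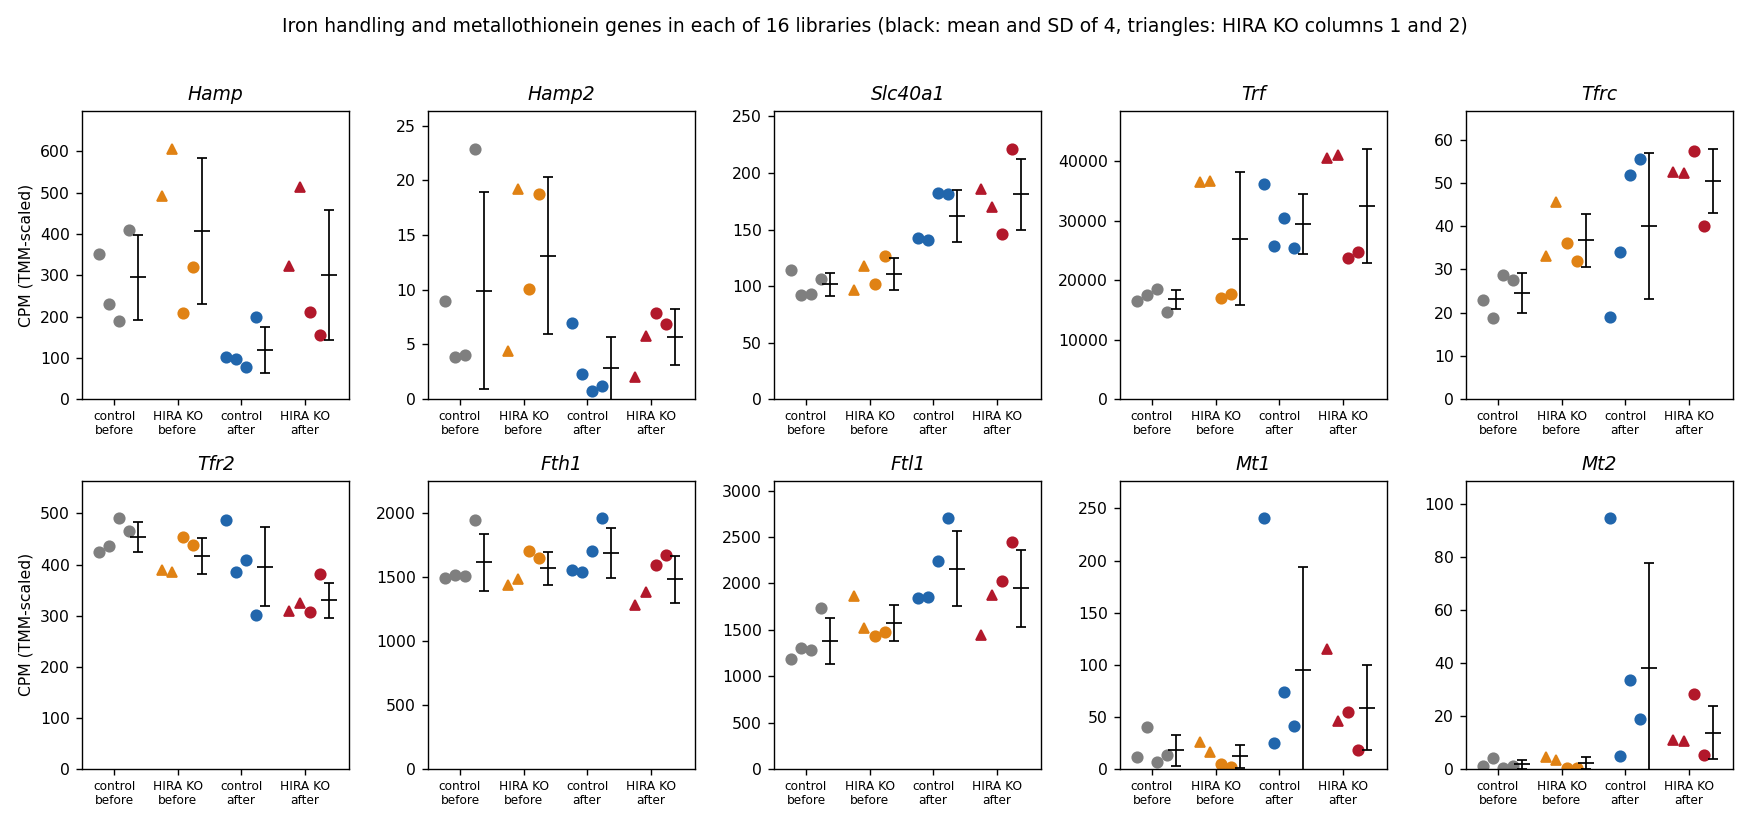
Level of each of the 10 genes in CPM (vertical axis, from 0) in each library of the 4 groups, with the mean and SD of 4 libraries in black (SD bars end at 0 where they would pass it). Triangles mark HIRA KO columns 1 and 2, which are the 2 highest libraries of their group for Trf and Hamp at both times, and Slc40a1 lies higher after regeneration in every library of both genotypes.

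Regeneration was compared first, within each genotype. In control liver 3 of the 10 genes rose and none fell: Slc40a1, Ftl1 and Mt2. In HIRA KO liver Slc40a1 alone rose and none fell. Over all genes 10.2% were called in control (6.04% higher) and 12% in HIRA KO (6.48% higher), in either direction. The median log2 change of the 10 genes was 0.66 in control and 0.29 in HIRA KO, beside medians of 0.00 and 0.02 over all genes tested. Library ranges before and after did not overlap for 4 genes that were higher in control (Trf, Ftl1, Slc40a1 and Mt2), for 2 that were higher in HIRA KO (Slc40a1 and Mt2) and for 1 that was lower in HIRA KO (Tfr2). Over all genes 10% were higher without overlap in control, 8.61% were higher and 7.45% lower in HIRA KO. DESeq2 called 7 members in control, with Hamp (lower) and Trf, Tfrc and Mt1 (higher) in addition, and 4 in HIRA KO, with Tfr2 (lower), Mt1 and Mt2 in addition. Of all genes it called 19.2% and 20.8%. The 2 genotypes were compared with separate libraries before and after, and the change in 1 genotype did not differ from that in the other past the threshold for any member, as given below.

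**Figure D2:**
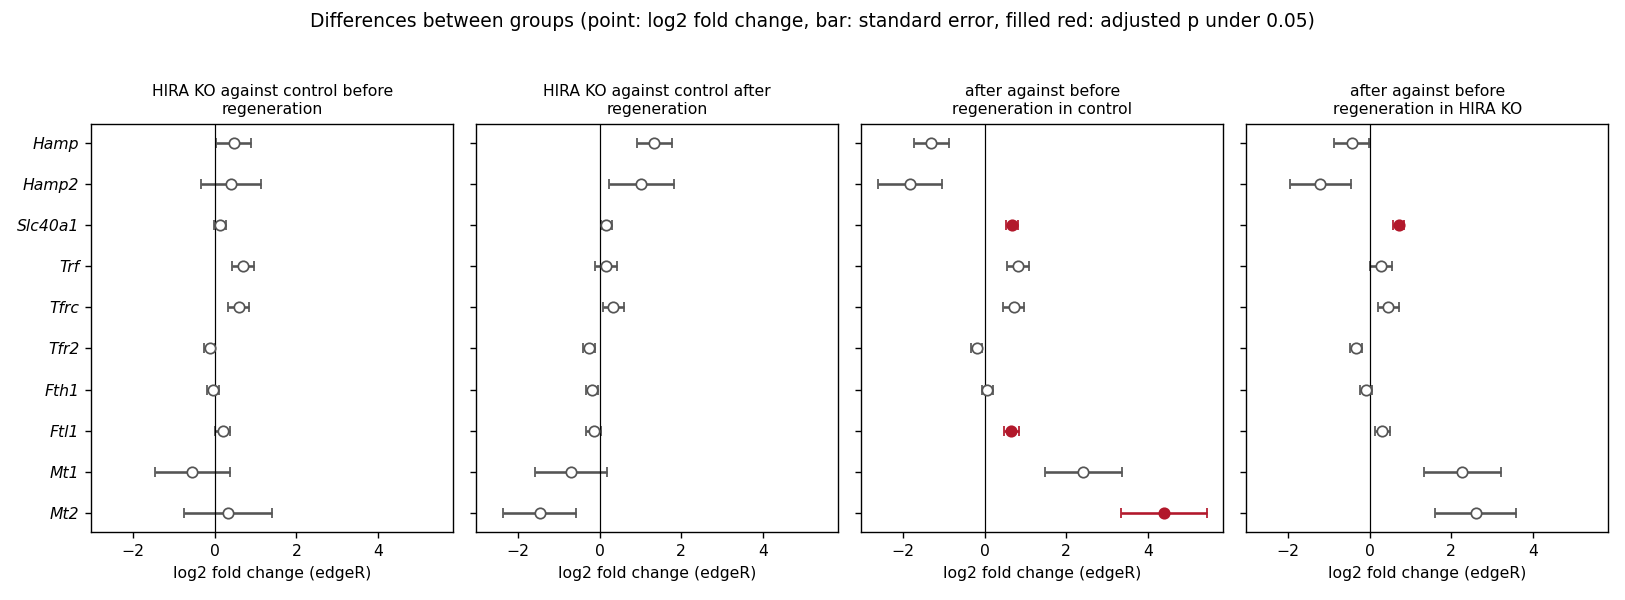
Fitted log2 fold change of each gene with its SE (edgeR, horizontal axis) in 4 comparisons, HIRA KO against control before and after regeneration and after against before in each genotype. Filled red points passed an adjusted p of 0.05: Slc40a1, Ftl1 and Mt2 in control and Slc40a1 in HIRA KO, all higher after regeneration.

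Slc40a1 lies at chr1:45908068-45926523 on the minus strand. In control libraries 1 to 4 it was at 114, 92.5, 93.4 and 106 CPM before regeneration and at 142, 141, 183 and 181 CPM after. In HIRA KO libraries it was at 96.3, 118, 102 and 126 CPM before and at 186, 170.0, 146 and 222 CPM after. Every library after regeneration was above every library before, in both genotypes. The log2 change was 0.67 ± 0.143 (SE, edgeR adjusted p = 0.00595) in control and 0.71 ± 0.143 (adjusted p = 0.00405) in HIRA KO. It was called in 8 of 8 fits that left out 1 library in each genotype, with log2 changes of 0.58 to 0.74 and of 0.62 to 0.81. Without HIRA KO columns 1 and 2 the change in HIRA KO was 0.70 (edgeR adjusted p = 0.034), in a fit that called 5.99% of all genes higher.

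Ferroportin is made by Kupffer cells, the resident macrophages of liver that recycle iron from red cells, as well as by hepatocytes. Among 11 Kupffer cell and macrophage markers, 11 of 11 rose in control (9 to 11 with 1 library left out). In HIRA KO 11 of 11 rose (10 without columns 1 and 2). The median log2 changes of these markers were 1.12 in control and 1.58 in HIRA KO. Their summed level ran from 203.5 to 543.0 CPM in control before and from 889.5 to 1122 CPM in control after regeneration. The HIRA KO sums ran from 281 to 318.5 CPM before and from 897 to 1327 CPM after. These marker sums moved with Slc40a1 between the groups. Within control before regeneration, library 4 had the lowest Kupffer cell score, a mean log2 level of 3.82, and a Slc40a1 level of 106 CPM, the second highest of its group. Within HIRA KO after regeneration, library 4 had both the highest Kupffer cell score, 6.46, and the highest Slc40a1 level, 222 CPM. The part of the marker change in the Slc40a1 result was not tested. Slc11a1, a macrophage iron transporter of the endosome, rose as well, from 9.49 to 18.4 CPM in control (log2 change 0.95, edgeR adjusted p = 0.00446) and from 8.09 to 19.3 CPM in HIRA KO (1.25, adjusted p = 0.000733).

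**Figure D3:**
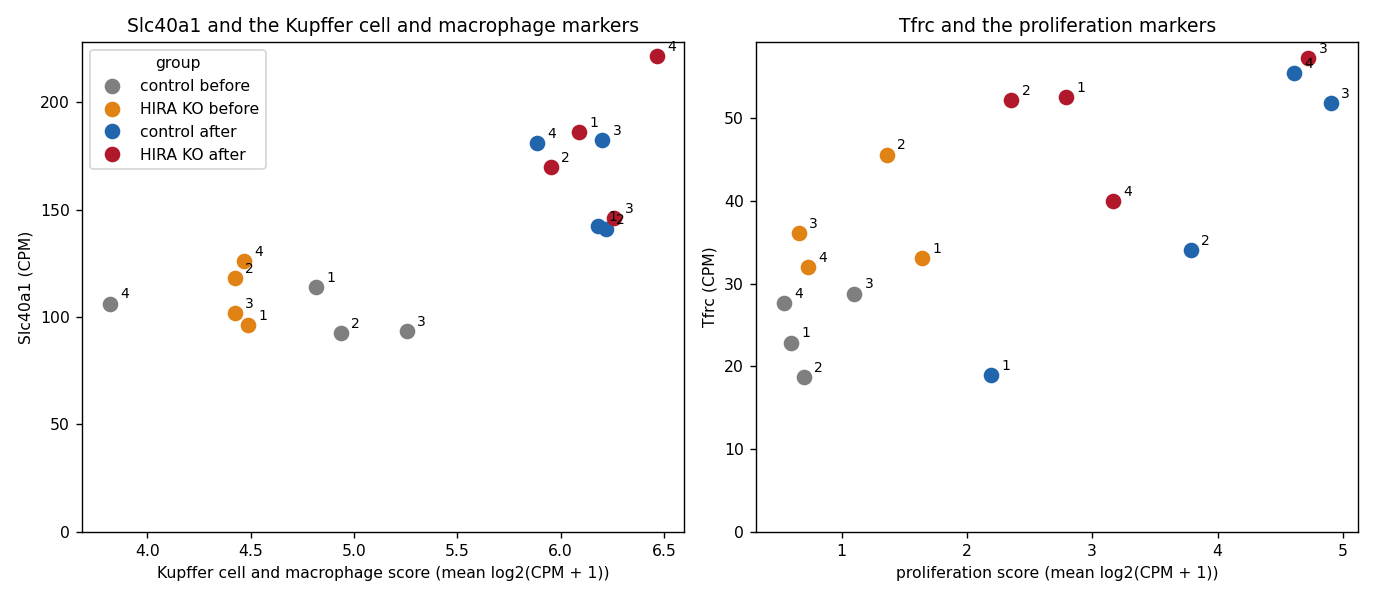
Left, Slc40a1 in CPM against the Kupffer cell and macrophage marker score, and right, Tfrc in CPM against the proliferation marker score (mean log2 level of the list), 1 point for each of 16 libraries. Libraries after regeneration lie to the right for both scores, and the control library after regeneration with the lowest proliferation score, 2.19, is also the one with the lowest Tfrc, 19.0 CPM. In HIRA KO after regeneration the lowest proliferation score, 2.35 in library 2, and the lowest Tfrc, 39.96 CPM in library 4, are in different libraries.

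Hamp, the hepcidin gene at chr7:30942368-30944032 on the minus strand, was at 350.3, 230.3, 189 and 410.5 CPM in control libraries 1 to 4 before regeneration. After regeneration the control libraries were at 103, 97.1, 77.0 and 199 CPM. Only the highest library after, 199 CPM, overlapped the lowest before, 189 CPM. The log2 change was -1.31 ± 0.434 (SE), with an edgeR adjusted p of 0.0734. The exact permutation p was 0.0571 unadjusted (two-sided, where 0.0286 is the smallest that 4 against 4 can give) and 0.176 adjusted over 40 tests. This comparison fell short here, while DESeq2 called it (log2 change -1.30, adjusted p = 0.00957). It was also called by edgeR with the filter filterByExpr (adjusted p = 0.0462, 18% of all genes called) and without control after library 4 (-1.71, adjusted p = 0.0375). In HIRA KO, Hamp was at 493, 607, 209 and 321 CPM before and at 323, 514, 209.9 and 157 CPM after. The ranges overlapped broadly, and the log2 change was -0.44 ± 0.427 (edgeR adjusted p = 0.564).

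Hamp2 (chr7:30922372-30924681, minus strand) is the second hepcidin gene of the mouse. It was at 8.95, 3.82, 4.01 and 22.9 CPM in control before and at 6.95, 2.35, 0.709 and 1.25 CPM after. In HIRA KO it was at 4.39, 19.2, 10.1 and 18.7 CPM before and at 2.04, 5.77, 7.87 and 6.90 CPM after. Its ranges overlapped in both genotypes, and its log2 changes of -1.84 ± 0.786 and -1.21 ± 0.748 did not pass (edgeR adjusted p = 0.175 and 0.33). Without control after library 1 the change in control was called (log2 change -2.77, edgeR adjusted p = 0.0477). The 2 transcripts share 60 stretches of 50 bases, 16.6% of those of Hamp and 15.5% of those of Hamp2, so a read from these stretches could be assigned to either gene and the Hamp2 level is uncertain.

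Genes of hepcidin signalling were counted in a list of 28 tested genes. It mixes upstream signals with targets of the pathway and with genes that restrain hepcidin, so its counts and medians give no direction of the signal. In control 0 of 28 rose and 5 fell (Bmp2, Bmp6, Bmpr2, Smad7 and Atoh8), with a list median of -0.20. In HIRA KO 1 rose and 9 fell, with a median of -0.38. Those that fell were Tmprss6, Bmp2, Bmp6, Bmpr2, Acvr2a, Neo1, Smad4, Smad7 and Il6st, and the gene that rose was Erfe, the gene of the hormone erythroferrone, which had few counts. Without 1 library the number that fell in control was 3 (without library 1 before or library 3 or 4 after) to 5. Among HIRA KO libraries the number was 4 without library 2 after or library 4 before, 5 without library 2 before and 6 without library 3 before or library 1 after, and 3 without columns 1 and 2.

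Bmp6, the main BMP ligand that reports iron to hepatocytes, was at 7.56 ± 1.45 CPM before and 3.78 ± 0.388 CPM after in control. The HIRA KO levels were 8.63 ± 1.90 and 4.64 ± 0.528 CPM. The log2 changes were -1.0 ± 0.181 (SE, edgeR adjusted p = 0.00228) and -0.90 ± 0.178 (adjusted p = 0.00388). Bmp2, a second endothelial ligand of the same pathway, went from 20.3 ± 2.94 to 10.4 ± 3.34 CPM in control and from 18.8 ± 4.08 to 9.91 ± 0.643 CPM in HIRA KO. Its log2 changes were -0.97 ± 0.203 (edgeR adjusted p = 0.00559) and -0.92 ± 0.203 (adjusted p = 0.00765). Both ligands were called in 8 of 8 fits that left out 1 library in each genotype, and in HIRA KO also without columns 1 and 2 (edgeR adjusted p = 0.0314 for Bmp6 and 0.0193 for Bmp2). Atoh8, a target of BMP signalling in hepatocytes, fell from 21.5 ± 4.38 to 9.80 ± 2.82 CPM in control (log2 change -1.13, edgeR adjusted p = 0.0113), while its change in HIRA KO was -0.43 (adjusted p = 0.306). Tmprss6, the protease that cleaves hemojuvelin and restrains hepcidin, fell in HIRA KO from 512 ± 32.4 to 379 ± 52.4 CPM (log2 change -0.44, edgeR adjusted p = 0.0281), a call that held without library 3 or 4 after and was lost without any 1 of the other 6 (adjusted p of 0.0526 to 0.0875) and without columns 1 and 2 (adjusted p = 0.389). Among 8 sinusoidal endothelial markers, 2 fell in each genotype (Kdr and Oit3), with list medians of -0.43 in control and -0.42 in HIRA KO. Without 1 library 1 or 2 fell in control, and in HIRA KO none fell without library 3 or 4 before. Their summed level ran from 288 to 357 CPM in control before and from 185 to 292 CPM after, and from 253 to 365 CPM in HIRA KO before and from 214 to 256 CPM after. The part of that marker change in the Bmp2 and Bmp6 results was not tested.

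**Figure D4:**
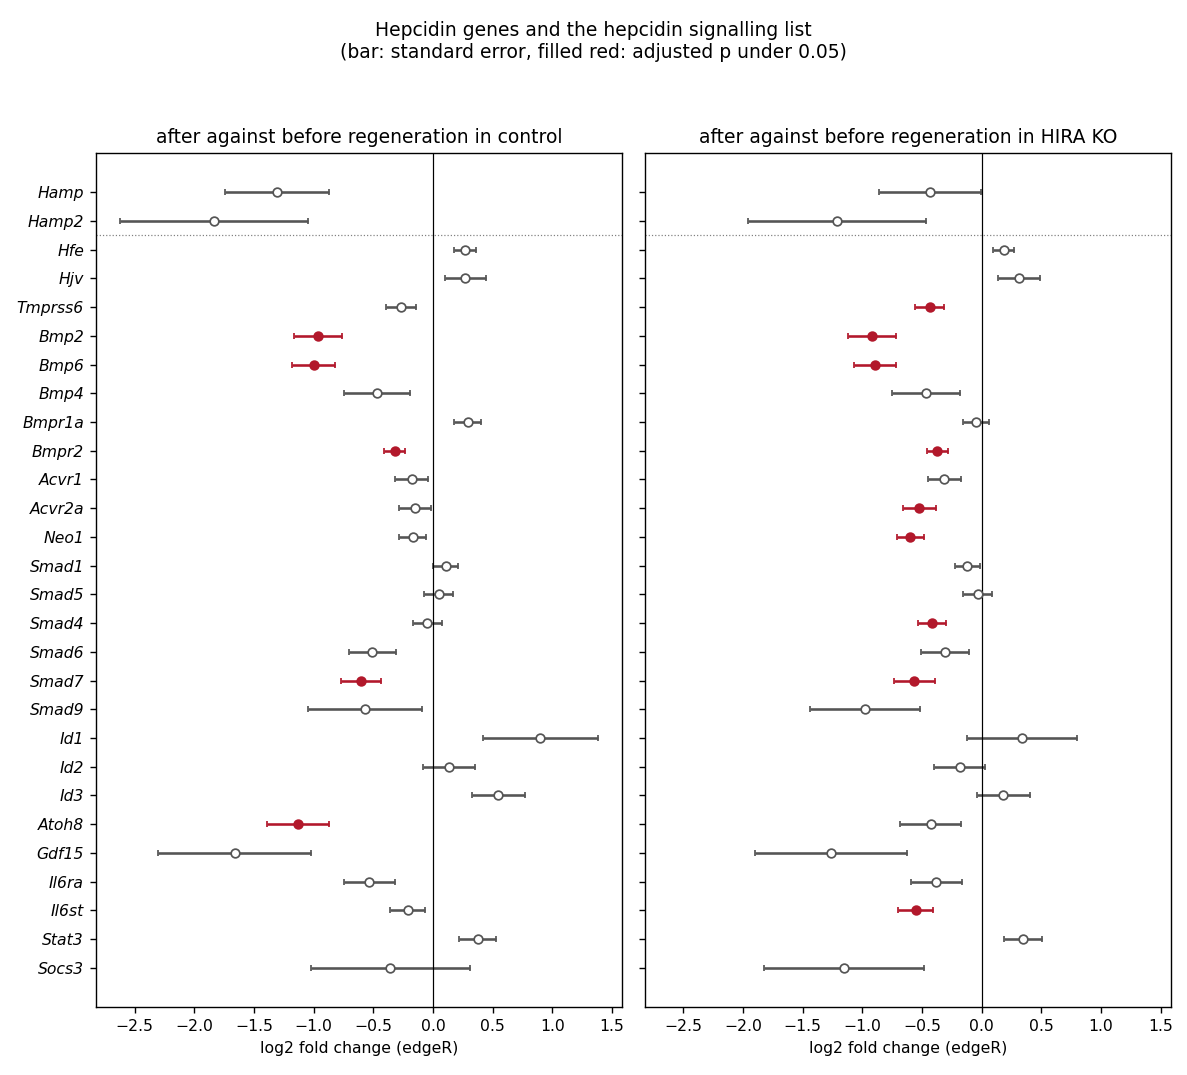
Fitted log2 fold change after against before regeneration (edgeR, horizontal axis) for Hamp, Hamp2 and the genes of hepcidin signalling in control and HIRA KO, without Erfe and Il6, which had few counts. Bmp2, Bmp6, Bmpr2 and Smad7 are called lower in both genotypes, and Hamp in neither.

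The acute phase list, which shares IL6 and STAT3 control with Hamp, had 18 tested genes. In control 8 rose and none fell, and in HIRA KO 7 rose and none fell, with medians of 1.05 and 1.08. Hamp had negative log2 changes in both genotypes, which did not pass in edgeR (adjusted p = 0.0734 in control and 0.564 in HIRA KO). The number that rose in control was 5 without library 1, 2 or 4 before or library 1 or 3 after, 6 without library 4 after and 11 without library 3 before. Among HIRA KO libraries it was 4 without library 2 before and 5 without library 4 before, and it was 2 without columns 1 and 2, where the calls of Lcn2 and Hp were lost (edgeR adjusted p = 0.162 and 0.0562). Lcn2, which binds bacterial iron carriers, went from 33.6 ± 56.2 to 604 ± 183 CPM in control (log2 change 4.17, edgeR adjusted p = 0.0302) and from 9.24 ± 7.27 to 279 ± 117 CPM in HIRA KO (4.91, adjusted p = 0.0168). Hp, the gene of haptoglobin, which captures free hemoglobin, went from 3465 to 8103 CPM in control (log2 change 1.23, edgeR adjusted p = 0.038) and from 2003 to 4713 CPM in HIRA KO (1.23, adjusted p = 0.0343). Single libraries decided the Hp call in both genotypes and the Lcn2 call in control. Of 8 fits that left out 1 library, Hp was called in 2 in control (without library 3 before or library 2 after) and in 4 in HIRA KO, and Lcn2 was called in 2 in control (without the same libraries) and in 7 in HIRA KO.

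Trf lies at chr9:103204001-103230444 on the minus strand. In control it was at 16448, 17503, 18479 and 14662 CPM before and at 36180.3, 25844, 30404 and 25401 CPM after. Every control library after regeneration was above every control library before. The exact permutation p was 0.0286 unadjusted (two-sided, the smallest that 4 against 4 can give) and 0.143 adjusted over 40 tests. The log2 change was 0.81 ± 0.272 (SE), which did not pass in edgeR (adjusted p = 0.0673) over all 4 groups. It passed in DESeq2 (adjusted p = 0.0171) and in an edgeR fit of the control libraries alone (adjusted p = 0.0067, in a fit that called 16.3% of all genes). In HIRA KO, Trf was at 36558, 36784, 17051 and 17621 CPM before and at 40651, 41084, 23747 and 24771 CPM after. Columns 1 and 2 were the high pair at both times, and the log2 change was 0.27 ± 0.271 (edgeR adjusted p = 0.571) with them and 0.50 without them.

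Of the receptors, Tfrc (chr16:32608920-32632794, plus strand) imports transferrin-bound iron. In control it was at 22.9, 18.7, 28.8 and 27.6 CPM before and at 19.0, 34.1, 51.8 and 55.5 CPM after. Library 1 after regeneration lay within the range before, and the other 3 lay above it. The log2 change was 0.71 ± 0.260 (SE, edgeR adjusted p = 0.0998), and without control after library 1 it was 0.96 (adjusted p = 0.00398) and was called. In HIRA KO it was at 33.1, 45.6, 36.2 and 32.0 CPM before and at 52.6, 52.2, 57.3 and 39.96 CPM after, a log2 change of 0.46 ± 0.258 (edgeR adjusted p = 0.272).

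Dividing cells take up iron through Tfrc, and proliferation markers were read beside it. All 8 of them rose in control and all 8 in HIRA KO, with median log2 changes of 4.86 and 3.23. In HIRA KO the count was 3 without library 3 after or without library 3 or 4 before, 5 without library 2 before, and 6 without columns 1 and 2. The proliferation score of control libraries 1 to 4 after regeneration was 2.19, 3.79, 4.90 and 4.61, lowest in library 1, where Tfrc was lowest too. In HIRA KO libraries 1 to 4 after regeneration the score was 2.79, 2.35, 4.72 and 3.17, lowest in library 2. Tfrc in these HIRA KO libraries was at 52.2 CPM in library 2 and lowest in library 4, at 39.96 CPM. The part of proliferation in the Tfrc values was not tested.

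Tfr2 (chr5:137569840-137587481, plus strand), the sensor, was at 425, 437, 490.4 and 466 CPM in control before and at 488, 386, 409 and 301 CPM after. Its ranges overlapped, with a log2 change of -0.20 ± 0.138 (SE, edgeR adjusted p = 0.428). In HIRA KO it was at 389, 385, 454 and 439 CPM before and at 309, 324, 307 and 381 CPM after. There the ranges did not overlap, all 4 libraries after being lower. The exact permutation p was 0.0286 unadjusted (two-sided) and 0.143 adjusted over 40 tests. The log2 change of -0.34 ± 0.138 did not pass over all genes in edgeR (adjusted p = 0.125).

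The ferritin subunits behaved unequally. Ftl1, the light chain at chr7:45457944-45459884 on the minus strand, was at 1183, 1303, 1278 and 1738 CPM in control before and at 1845, 1855, 2238 and 2702 CPM after. The 4 libraries after were all above the 4 before, and the log2 change was 0.65 ± 0.184 (SE, edgeR adjusted p = 0.0297). That call was sensitive to single libraries. The adjusted p was 0.0955, 0.0765 and 0.0735 without control before library 1, 2 or 3, and 0.0694 and 0.123 without control after library 3 or 4, in edgeR. In HIRA KO Ftl1 was at 1866, 1518, 1429 and 1480.0 CPM before and at 1444, 1873, 2025 and 2450.1 CPM after, with overlap. The log2 change was 0.31 ± 0.183 (edgeR adjusted p = 0.299) with all libraries and 0.64 (adjusted p = 0.0722) without columns 1 and 2.

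Fth1, the heavy chain with the ferroxidase activity (chr19:9980598-9985098, plus strand), was at 1489.9, 1516, 1505 and 1947 CPM in control before and at 1556, 1541, 1703 and 1959 CPM after. In HIRA KO it was at 1436, 1482, 1702 and 1649.7 CPM before and at 1281, 1379.6, 1593 and 1673 CPM after. The ranges overlapped in both genotypes, with log2 changes of 0.07 ± 0.143 and -0.08 ± 0.143 (SE, edgeR adjusted p = 0.851 and 0.768). The ratio of Fth1 to Ftl1 in FPKM ran from 0.708 to 0.802 over the control libraries before regeneration and from 0.467 to 0.516 over those after. The 2 ranges did not overlap, and the light chain message was thus higher against the heavy chain message in every control library after regeneration. In HIRA KO the ratio ran from 0.499 to 0.711 before and from 0.437 to 0.578 after, with overlap. Of the stretches of 50 bases in Ftl1 transcripts, 73.4% were shared with the processed copy Ftl1-ps1, 29.7% with Ftl2-ps and 13.6% with Ftl1-ps2, so their counts are uncertain. The counts assigned to Ftl1-ps1 were 399 to 1037 a library beside 21026 to 56282 for Ftl1.

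The metallothioneins had the largest fold changes with regeneration, and their libraries spread widely within a group. Mt2 (chr8:94172664-94173568, plus strand) was at 1.29, 4.30, 0.401 and 1.18 CPM in control before, from 7 to 80 counts a library. After regeneration the control libraries were at 94.7, 5.04, 33.8 and 19.0 CPM, from 88 to 1512 counts. Library 2 was the highest before at 4.30 CPM and the lowest after was 5.04 CPM, so the ranges did not overlap, but only narrowly. Mt2 rose 21.0-fold in the fit, a log2 change of 4.39 ± 1.05 (SE, edgeR adjusted p = 0.0187). The call was lost without control before library 1, 3 or 4 (log2 change 4.26, 4.07 and 4.24, edgeR adjusted p = 0.0579, 0.0504 and 0.0593). The fold moved most without control before library 2 (log2 change 5.29, adjusted p = 0.0249) and control after library 1 (3.43, adjusted p = 0.0429).

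In HIRA KO, Mt2 was at 4.66, 3.33, 0.408 and 0.438 CPM before and at 10.8, 10.7, 28.2 and 5.18 CPM after. All 4 libraries after were above all 4 before, and the fitted log2 change of 2.60 ± 0.998 (SE), or 6.07-fold, did not pass in edgeR (adjusted p = 0.113) while DESeq2 gave an adjusted p of 0.030. Without columns 1 and 2, which had the higher Mt2 levels before regeneration, the log2 change was 5.31 (edgeR adjusted p = 0.129).

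Mt1 (chr8:94179082-94180327, plus strand) was at 11.1, 39.9, 6.70 and 13.4 CPM in control before and at 241, 25.2, 73.6 and 41.5 CPM after. In HIRA KO it was at 25.6, 16.5, 4.35 and 1.94 CPM before and at 115, 46.1, 55.0 and 18.4 CPM after. Its highest library exceeded its lowest 5.96-fold in control before, 13.2-fold in HIRA KO before, 9.54-fold in control after and 6.25-fold in HIRA KO after. The ranges before and after overlapped in both genotypes, and the log2 changes of 2.42 ± 0.937 and 2.27 ± 0.941 (SE) did not pass in edgeR (adjusted p = 0.134 and 0.14), and without columns 1 and 2 the change in HIRA KO was 3.58 (adjusted p = 0.159). The 2 genes, neighbours on chromosome 8 with no shared stretch of 50 bases, varied together: over the 16 libraries the Pearson r of log2(CPM + 1) was 0.918, and r of the deviations from the group means was 0.868. These points share libraries and depth, and the values describe them only.

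Per length, Mt1 was the higher of the pair in every library before regeneration. The ratio of Mt1 to Mt2 in FPKM was 2.68, 3.04, 4.09 and 3.67 in control libraries 1 to 4, against 2.27, 2.40, 4.17 and 1.99 in those of HIRA KO. After regeneration it was 1.11, 1.98, 0.895 and 0.883 in control libraries, against 5.03, 1.88, 0.758 and 1.28 in those of HIRA KO. Every control library had a lower ratio after than any had before. In HIRA KO, library 1 after had the highest FPKM ratio of all 16, at 5.03. By raw counts it was not the highest, with 2540 of Mt1 and 238 of Mt2, beside 117 and 7 in control library 3 before. The ratios before regeneration rest on few Mt2 counts, 7 to 80 a library in control and 6 to 88 in HIRA KO.

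**Figure D5:**
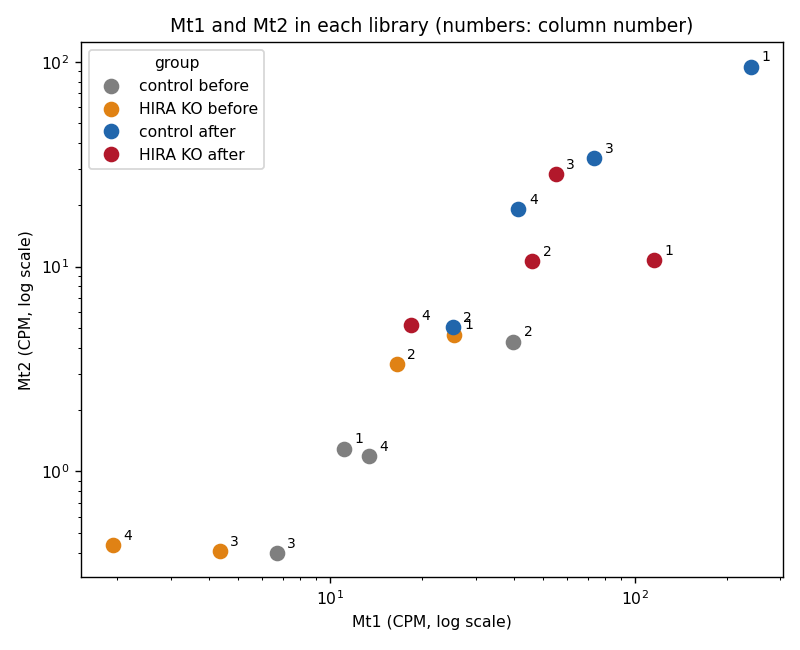
Mt1 (horizontal) against Mt2 (vertical) in CPM on log axes in the 16 libraries, with the column number beside each point. The control libraries before regeneration lie between 0.401 and 4.30 CPM of Mt2 and those after between 5.04 and 94.7 CPM. In HIRA KO after regeneration library 1 had the highest Mt1, 115 CPM, and library 3 the highest Mt2, 28.2 CPM.

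The genes that control metallothioneins were counted next. Of 15 tested zinc transporters and regulators, 2 rose (Slc39a4 and Slc30a4) and 1 fell (Mtf1) in control, and Mtf1 alone fell in HIRA KO. Mtf1 encodes the metal-responsive factor that activates Mt1 and Mt2, and it went from 22.7 ± 2.30 to 17 ± 1.60 CPM in control and from 24.6 ± 2.66 to 17.9 ± 1.77 CPM in HIRA KO. Its log2 changes were -0.42 ± 0.110 and -0.45 ± 0.110 (SE, edgeR adjusted p = 0.0211 and 0.0129), opposite in sign to those of Mt1 and Mt2. The call was lost in control without library 2 before or library 1 or 4 after (edgeR adjusted p = 0.0752, 0.0668 and 0.0531), and in HIRA KO without library 2 before (adjusted p = 0.0506) and without columns 1 and 2 (adjusted p = 0.102). Slc39a4, a zinc importer of the cell surface, rose from 29.9 to 86.9 CPM in control (log2 change 1.54, edgeR adjusted p = 0.003). In the list of 10 glucocorticoid targets, 1 rose (Fkbp5) and 5 fell in control (Per1, Tat, Pck1, Dusp1 and Klf9). In HIRA KO 1 rose (Fkbp5) and 5 fell (Tat, Pck1, Dusp1, Nr3c1 and Klf9), of which Nr3c1 encodes the glucocorticoid receptor itself. Tat, a hepatocyte amino acid enzyme, went from 2725 to 707 CPM in control and from 3209 to 937 CPM in HIRA KO. Fkbp5, a chaperone of the receptor, went from 21.4 to 42.2 CPM in control (log2 change 0.98) and from 24.8 to 41.4 CPM in HIRA KO (0.74).

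The other iron genes were counted in 5 further lists. Among 21 genes of iron transport and storage, 5 rose in control (Slc11a1, Steap4, Cp, Lcn2 and Scara5) and none fell, while 3 rose (Slc11a1, Cp and Lcn2) and 2 fell (Slc39a8 and Heph) in HIRA KO. Cp encodes ceruloplasmin, the plasma ferroxidase that works with ferroportin, and it went from 1265 ± 118 to 2744 ± 347 CPM in control (log2 change 1.12, edgeR adjusted p = 0.000463) and from 1197 ± 181 to 1866 ± 273 CPM in HIRA KO (0.64, adjusted p = 0.0131). Of 13 genes of heme and hemoglobin handling, 5 rose in control (Hmox1, Hpx, Hp, Slc48a1 and Flvcr1), and 4 rose (Hmox1, Blvra, Hpx and Hp) and 1 fell (Slc46a1) in HIRA KO. Hmox1, the enzyme that frees iron from heme and a gene that macrophages express, went from 21.1 ± 4.97 to 45.3 ± 4.99 CPM in control and from 21.0 ± 4.00 to 56.5 ± 17.8 CPM in HIRA KO. Its log2 changes were 1.10 ± 0.211 and 1.43 ± 0.212 (SE, edgeR adjusted p = 0.00369 and 0.000698), and the Kupffer cell markers given above moved the same way. Hpx, the plasma carrier of free heme, went from 4696 ± 1554 to 13637 ± 2763 CPM in control (log2 change 1.54, edgeR adjusted p = 0.00131) and from 5554 ± 1881 to 15338 ± 2383 CPM in HIRA KO (1.47, adjusted p = 0.00165). Of 7 iron regulatory genes, Cisd1 and Epas1 fell in control and Epas1 in HIRA KO. Of 9 heme synthesis genes none was called in control and Fech fell in HIRA KO. Of 12 genes of iron-sulfur cluster assembly, Iscu fell in control, and Iscu and Isca1 fell in HIRA KO.

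Counted once each, the 9 lists held 129 tested genes, of which 18 rose and 14 fell in control (24.8% called, beside 10.2% of all genes) and 14 rose and 22 fell in HIRA KO (27.9%, beside 12%). The share over all genes includes genes with few counts, and with the filter filterByExpr it was 18% of 15201 genes in control. DESeq2 called 33.3% of the list genes in control and 34.1% in HIRA KO, beside 19.2% and 20.8% of all genes. Without HIRA KO columns 1 and 2 the number called in HIRA KO was 18. There the glucocorticoid targets had 0 higher and 3 lower (Tat was called and Fkbp5 was not, edgeR adjusted p = 0.0514), iron transport and storage 1 higher and 1 lower (Slc11a1 was called and Cp was not, adjusted p = 0.0516), the zinc list 0 in either direction, and heme and hemoglobin handling 3 higher and 1 lower, with Hmox1 and Hpx called. The iron regulatory list had 1 lower, heme synthesis 2 lower and iron-sulfur assembly 1 lower. Fewer markers of the other liver cells were called. Of 6 hepatocyte markers none was called in control and Ttr fell in HIRA KO, a call lost without columns 1 and 2. None of 7 stellate cell markers was called, 1 of 5 neutrophil markers rose in HIRA KO (S100a8, not called without columns 1 and 2) and 1 of 5 cholangiocyte markers rose in control (Spp1). Of 9 red cell and erythroid markers Slc4a1 rose and Klf1 fell in each genotype, where Klf1 was not called in HIRA KO without columns 1 and 2.

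HIRA KO was compared with control next, at each time. Before regeneration edgeR called 0 of the 10 genes, beside 0.0391% of all genes, and DESeq2 called 0, beside 2.37% of all genes. At an unadjusted p under 0.05 there were 2, Trf and Tfrc, both higher in HIRA KO, beside 13.2% of all genes. Tfrc was the only member whose 4 HIRA KO libraries (32.0 to 45.6 CPM) all exceeded the 4 control libraries (18.7 to 28.8 CPM), where 3.54% of all genes were higher without overlap. Its log2 difference was 0.58 ± 0.260 (SE, edgeR adjusted p = 0.356), and 0.48 without columns 1 and 2. The proliferation score in these libraries was 1.64, 1.36, 0.657 and 0.732 in HIRA KO columns 1 to 4 and 0.538 to 1.10 in control, and its part in the Tfrc values was not tested. Trf was at 16773 ± 1633 CPM in control and 27003 ± 11166 in HIRA KO. That SD came from columns 1 and 2 at 36558 and 36784 CPM beside 17051 and 17621 CPM in columns 3 and 4, which lay among the controls. The log2 difference was 0.69 ± 0.272 (edgeR adjusted p = 0.305) with columns 1 and 2 and 0.05 without them. Hamp followed the same split, at 493 and 607 CPM in columns 1 and 2 and at 209 and 321 CPM in columns 3 and 4. Its log2 difference from control was 0.47 ± 0.427 (edgeR adjusted p = 0.686), and -0.15 without columns 1 and 2. The median log2 difference over the 10 genes was 0.26, beside 0.01 over all genes.

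After regeneration edgeR called 0 of the 10 genes, beside 0.491% of all genes, and 1 (Hamp) had an unadjusted p under 0.05, beside 15.8% of all genes. The library ranges of control and HIRA KO overlapped for all 10 genes, while 8.1% of all genes had none. Hamp was at 119 ± 54.5 CPM in control and 301 ± 158 in HIRA KO. Columns 1 and 2, at 323 and 514 CPM, were above all 4 controls, column 3 at 209.9 CPM was just above the highest control at 199 CPM, and column 4 at 157 CPM was within the control range. The log2 difference was 1.34 ± 0.434 (SE, edgeR adjusted p = 0.156). For this difference the exact permutation p was 0.0571 unadjusted (two-sided) and 0.176 adjusted over 40 tests. DESeq2 called it (adjusted p = 0.0203), as 1 of the 5.93% of genes that it called, and without columns 1 and 2 the edgeR difference was 0.64 and not called. Trf differed by 0.14 ± 0.271 on the log2 scale (edgeR adjusted p = 0.848), and by -0.26 without columns 1 and 2. The metallothioneins had lower means in HIRA KO, 58.6 ± 40.7 against 95.2 ± 98.9 CPM for Mt1 and 13.7 ± 10.00 against 38.1 ± 39.5 CPM for Mt2. Their log2 differences of -0.70 ± 0.887 and -1.47 ± 0.889 were within the spread between libraries (edgeR adjusted p = 0.76 and 0.458). Tfr2 differed by -0.26 ± 0.138, Fth1 by -0.19 ± 0.143, Ftl1 by -0.15 ± 0.183, Slc40a1 by 0.16 ± 0.142, Tfrc by 0.33 ± 0.257 and Hamp2 by 1.02 ± 0.784, none called. The median over the 10 genes was -0.00, beside 0.02 over all genes.

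The difference between the genotypes in their change with regeneration was tested as an interaction. None of the 10 genes was called in edgeR, with 0 at an unadjusted p under 0.05 and 0 in DESeq2, and the smallest edgeR adjusted p was 0.816. Over all genes edgeR called 0% and DESeq2 0.413%, and 6.81% had an unadjusted p under 0.05. For Hamp the interaction was 0.87 ± 0.604 (log2, SE), for Trf -0.54 ± 0.383, for Ftl1 -0.34 ± 0.259 and for Mt2 -1.79 ± 1.39. For Slc40a1 it was 0.04, the smallest of these. That Ftl1 and Mt2 were called in control and not in HIRA KO is therefore no measured difference between the genotypes.

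The lists were compared between the genotypes in the same way. Before regeneration 0 of the 129 genes were called in edgeR, 25 (19.4%, beside 13.2% of all genes) had an unadjusted p under 0.05, and DESeq2 called 4 (3.1%, beside 2.37%), 3 higher and 1 lower. After regeneration 1 was called, Lrp1, and 40 (31%, beside 15.8% of all genes) had an unadjusted p under 0.05, while DESeq2 called 13 (10.1%, beside 5.93%), 3 higher and 10 lower. Lrp1 encodes the receptor that clears the complex of heme and hemopexin. It was at 879.7 ± 241 CPM in control and 489 ± 56.1 in HIRA KO with no overlap, a log2 difference of -0.85 ± 0.183 (SE, edgeR adjusted p = 0.0464). The call held only without HIRA KO library 4 among 8 fits that left out 1 library, with adjusted p of 0.0537 to 0.177 in the others, and without HIRA KO columns 1 and 2 the difference was -0.79 (adjusted p = 0.18). Acute phase genes had median log2 differences of -0.53 before and -0.82 after regeneration with none called in edgeR, 8 and 13 of 18 at an unadjusted p under 0.05, and 1 and 4 lower in DESeq2. Between the genotypes edgeR called no cell marker at either time. Before regeneration 4 of 6 hepatocyte, 4 of 7 stellate cell and 3 of 5 cholangiocyte markers had an unadjusted p under 0.05, and DESeq2 called 2 hepatocyte markers lower and 1 cholangiocyte marker higher in HIRA KO. The median log2 difference was 0.50 for stellate cell and 1.21 for cholangiocyte markers, and 0.03 and 0.10 without HIRA KO columns 1 and 2. For hepatocyte markers it was 0.08, and -0.14 without these columns. The part of these markers in the values before regeneration was not tested.

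Genes with the pattern most like a member were named for 3 of the 10, by Pearson r of log2(CPM + 1) over the 16 libraries among 13176 genes with a mean of at least 1 CPM. For Hamp they were Gpt2 (r = 0.91), Atl2 (0.903), Fbxw4 (0.90), Gm36172 (0.892) and Pla2g12a (0.888). For Tfrc they were Rcc1 (r = 0.908), Sept6 (0.892), Lmo4 (0.891), Rbbp8 (0.889) and Fam72a (0.887). For Mt1 they were Mt2 (r = 0.918), Nup160 (0.883), Il1rn (0.874), Cd300lf (0.874) and Il13ra1 (0.871). The libraries share their group and depth, so these are descriptions. Within the 10 genes, r over all libraries and r of the deviations from group means were 0.55 and 0.12 for Hamp with Hamp2, 0.47 and 0.74 for Fth1 with Ftl1, and 0.06 and 0.53 for Trf with Hamp.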

How the data were processed

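Poly(A) RNA from liver was made into strand-aware libraries (NEBNext Ultra II Directional). Per the study's methods the authors aligned reads to mm10 with STAR and counted reads per gene with HOMER, and the submitters' processing notes also list HTSeq and Cufflinks with no role given. They deposited 1 table of raw counts per gene and 1 table of FPKM for the same 16 libraries. The tool behind the deposited FPKM values is not given in the sources used here. The depth was 15103059 to 21738619 counts a library.

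Genes with at least 10 counts over all libraries were tested (23018). TMM-scaled counts were fitted with 1 mean for each of 4 groups by edgeR's robust quasi-likelihood test (edgeR 4.0.16, limma 3.58.1, R 4.3.3), with p adjusted by Benjamini-Hochberg over all genes and a call at an adjusted p under 0.05. SE is the log2 change divided by the square root of its F statistic. Single genes were also tested by a two-sided exact permutation of 4 against 4 libraries. These exact p-values were adjusted by Benjamini-Hochberg over 40 tests, where the smallest was 0.143 and none passed 0.05. Counts of replicate libraries differed by more than sampling noise in all 24 pairs (chi-square per degree of freedom 12.4 to 135). The test was tried on simulated data. Alternatives were DESeq2 1.42.0, RLE and upper-quartile scaling, no filter or filterByExpr, a fit of the compared groups alone, and each library left out. A fit without HIRA KO columns 1 and 2 was added after seeing the data. UTR and promoter letters came from GENCODE M21 and RefSeq, and 54673 of 55421 gene identifiers were identical to those of GENCODE M21.

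The 10 genes were named in every comparison. Genes of 9 lists (hepcidin signalling, iron transport and storage, iron regulatory proteins, heme and hemoglobin uptake and breakdown, heme synthesis, iron-sulfur cluster assembly, zinc and metallothionein control, glucocorticoid targets, acute phase) were counted, with values for at most the 4 with the smallest p per list and comparison among those called in any comparison, and so were 8 lists of cell markers. The genes most like Hamp, Tfrc and Mt1 were the 5 with the highest r. Members and lists were chosen with earlier results of these data known. Hephl1, Ftmt, Mt3 and Mt4 had too few counts to be tested.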

Additional observations from a re-analysis of the deposited data

Results flagged for a closer look

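Fth1 in control before regeneration had 1 library far from the others. Library 4 was at 1947 CPM, while the other 3 reached at most 1516 CPM, and the gap was 0.943 of the whole range of the group, above Dixon's 95% critical value for 4 samples. It was the only such group among 40 examined (10 genes in 4 groups), where chance gives about 1 in 20. The cause was not tested.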

How the results depend on the processing

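No paired analysis was possible because the columns of the table carry a running number that no label ties to a mouse, so the planned fits with the mouse as a replicate block and with the deletion approach as a term were not run. The number of members called was 0 and 1 (HIRA KO against control before and after) in DESeq2, where edgeR gave 0 and 0, and 7 and 4 (regeneration in control and in HIRA KO) in DESeq2, where edgeR gave 3 and 1. In control it ranged from 1 (without library 1 or 3 before) to 5 (without library 1 after) when 1 library was left out. Without HIRA KO columns 1 and 2 the sign turned, before regeneration, for Hamp (log2 difference -0.15), Fth1 (0.0574) and Mt2 (-2.07), after regeneration for Trf (-0.26) and Ftl1 (0.0677), and in the interaction for Mt1 (1.16) and Mt2 (0.92). With 1 library left out the log2 difference before regeneration ranged from -1.22 to 0.22 for Mt1, from -0.38 to 1.21 for Mt2 and from -0.0857 to 0.0516 for Fth1. After regeneration it ranged from -1.21 to 0.33 for Mt1 and from -0.26 to 0.0232 for Ftl1. For regeneration in control Fth1 ranged from -0.0421 to 0.16, and in the interaction Slc40a1 ranged from -0.0595 to 0.15, Mt1 from -0.91 to 0.88 and Hamp2 from -0.17 to 1.57. None of these values was called in the main test, and the cause of the changes was not tested. Of all single-gene values under the alternatives, 762 kept direction and call, 13 passed the threshold that the main value missed, 8 lost it and 27 turned sign. Depth limits Mt2 and Hamp2 most, with 6 to 88 counts a library for Mt2 before regeneration.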
